A study of Homo sapiens with 3 samples.

Results

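The heat shock proteins and the J-domain cochaperones are the folding machinery of the cell, and 71 genes of these families were followed in RNA-seq libraries labelled as a liver cancer cell line. The members were taken by gene symbol from the deposited gene tables, as all HSP90, HSPA, HSPH1, HSPB1 to HSPB9, HSPD1, HSPE1, DNAJA, DNAJB and DNAJC genes on the main chromosomes, without pseudogenes and without symbols that hold a hyphen. They are 71 of the 39320 gene rows outside alternate contigs. Of these members, 3 belong to HSP90, 15 to HSP70 (HSPA genes and HSPH1), 7 to the small heat shock proteins (HSPB), 2 to HSP60/HSP10, 4 to DNAJA, 12 to DNAJB and 28 to DNAJC, so that 44 are J-domain genes. The rule uses gene symbols, not levels, but it was written with earlier results of these data known.

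The series holds 3 libraries of polyA RNA, all labelled as genotype WT of HepG2. The study describes HepG2 as a human hepatocellular carcinoma line, and the labels name no treatment, dose or time. There was 1 condition, so levels were compared between genes within a library and between replicates, not between conditions. Nothing in the labels says that the replicates were separate cultures, and each SD measures the spread between these libraries, which may be technical. Levels are given in TPM, a share of all transcripts in a library that is corrected for gene length and adds up to a fixed total. Folds are ratios of TPM as deposited.

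Of 8 genes for proteins that hepatocytes secrete (ALB, APOA1, APOB, SERPINA1, TTR, TF, FGB and AFP), 8 stayed under 1 TPM throughout and 5 were listed at 0 in each library, with summed levels of 0.0571, 0.244 and 0.133 TPM in replicates 1, 2 and 3. The labelled cell type is therefore not borne out by its defining genes, and the levels below are those of the libraries that carry the HepG2 label. In bulk RNA, fewer cells that express a gene and less RNA of that gene per cell cannot be told apart. By the highest coverage per FPKM, a measure that rises with depth, replicates 1 and 2 were deeper than replicate 3, by 1.16 and 1.12 times. Mitochondrially encoded genes took 19.9% to 20.2% of all TPM.

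HSP70 proteins bind exposed hydrophobic stretches of unfolded proteins in a cycle driven by ATP. J-domain proteins bring clients to HSP70 and trigger its ATP hydrolysis through the conserved HPD motif, and nucleotide exchange factors such as the HSP110 proteins reset it. HSP90 acts later, on nearly folded clients such as kinases and steroid receptors. HSP60 and HSP10 form the folding chamber of the mitochondrial matrix, and small heat shock proteins hold unfolding proteins without ATP. Cytosolic heat shock genes are classical targets of HSF1, which binds inverted repeats of nGAAn called heat shock elements, whereas the ER members are classical targets of the unfolded protein response through the ER stress element.

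The promoter windows show which members carry these letters. RefSeq windows (GRCh38.p14) from 250 bases before to 50 after each gene's start were found for 64 of the 71 members, in 83 windows. A run of 3 alternating heat shock units (GAANNTTCNNGAA or TTCNNGAANNTTC, which together read both strands) was present in 7 member windows, or 8.43%, against 0.490% of all 35116 windows. The 7 genes were HSPA8, HSP90AA1, HSP90AB1, HSPD1, HSPA6, DNAJB6 and DNAJA1. These stretches are printed because the set spans the highest and some of the lowest levels of the family. Capitals mark the units of these runs, 3 in each stretch but that of HSPD1, where 2 overlapping matches give 4. The HSP90AA1 stretch also holds a separate pair of units (TTCNNGAA) after its run, which is left in small letters. The sequences run 5′ to 3′ on the strand of the gene.
HSPA8 (chr11:123062346-123062374, minus strand): gcgagcttGAAAGTTCCAGAAcgctgcgg
HSPA8 (chr11:123062171-123062199, minus strand): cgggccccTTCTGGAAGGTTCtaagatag
HSP90AA1 (chr14:102087095-102087157, minus strand): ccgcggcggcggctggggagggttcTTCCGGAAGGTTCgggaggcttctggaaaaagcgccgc
HSP90AB1 (chr6:44247753-44247815, plus strand): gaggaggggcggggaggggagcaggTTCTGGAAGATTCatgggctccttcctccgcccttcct
HSP90AB1 (chr6:44247806-44247868, plus strand): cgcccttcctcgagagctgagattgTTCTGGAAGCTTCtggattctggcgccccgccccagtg
HSPD1 (chr2:197500061-197500090, minus strand): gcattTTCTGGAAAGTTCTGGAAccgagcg
HSPA6 (chr1:161524441-161524503, plus strand): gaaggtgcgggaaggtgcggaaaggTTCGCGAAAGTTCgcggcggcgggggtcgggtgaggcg
DNAJB6 (chr7:157336848-157336910, plus strand): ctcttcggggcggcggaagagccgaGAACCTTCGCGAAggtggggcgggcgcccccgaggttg
DNAJA1 (chr9:33025269-33025295, plus strand): ccgggcgGAACTTTCCAGAAcgctcgg

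By the canonical GENCODE v44 transcripts, the stretches of HSPA8, HSP90AA1, HSPD1, HSPA6 and DNAJB6 lie before the first exon, those of HSP90AB1 lie in its first intron, and that of DNAJA1 lies mostly in its first, untranslated exon. Both HSPA8 stretches and that of HSPD1 also lie in exons of other transcripts of the same gene, and the HSPD1 stretch lies within the row of HSPE1-MOB4 on the opposite strand. In HSPA8 the matches begin 230 and 55 bases before the RefSeq start, in HSP90AA1 88 bases, in HSPA6 74 bases and in DNAJB6 131 bases before it. A match shows that these letters are present and does not show that a factor binds there. Only exact matches were counted, so the lack of a match does not show that no such element is present.

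HSPA1A and HSPA1B, the stress-inducible HSP70 pair, had no run of 3 units in the window and held 1 pair of units (GAANNTTC or TTCNNGAA), marked in capitals. The stretches are shown to let the reader see how closely the neighbouring genes match. DNAJB1, their classical J-domain partner, held such a pair at 2 places before its first exon.
HSPA1A (chr6:31815412-31815469, plus strand): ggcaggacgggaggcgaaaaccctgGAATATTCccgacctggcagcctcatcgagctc
HSPA1B (chr6:31827608-31827665, plus strand): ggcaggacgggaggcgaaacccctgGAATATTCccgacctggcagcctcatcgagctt
DNAJB1 (chr19:14518442-14518499, minus strand): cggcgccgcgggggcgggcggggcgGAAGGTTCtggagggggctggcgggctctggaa
DNAJB1 (chr19:14518412-14518469, minus strand): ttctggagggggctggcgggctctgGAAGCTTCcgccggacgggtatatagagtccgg

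Over their 58 bases the HSPA1A and HSPA1B stretches differ at 2 positions, A20C and C58T, counted from 1 at the 5′ end with the HSPA1A base first. A pair of units was present in 22 members, in 27.7% of member windows against 13.5% of all windows, and every run of 3 units also contains such a pair. TATAAA on the strand of the gene was present in 9 members, in 10.8% of member windows against 7.33% of all, and it began 30 bases before the start in HSPA1A and 29 bases before it in HSPA1B.

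The ER stress element (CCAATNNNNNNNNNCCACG or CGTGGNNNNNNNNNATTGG) was found in 2 members, HSPA5 and HSP90B1, or 2.41% of member windows against 0.0769% of all. Both encode the abundant folding chaperones of the ER lumen, and the element is in capitals. The stretches lie before the first exon of the canonical transcript. Both HSP90B1 stretches also lie in exons of other transcripts of that gene, as do 12 of the 59 bases of the HSPA5 stretch.
HSPA5 (chr9:125241371-125241429, minus strand): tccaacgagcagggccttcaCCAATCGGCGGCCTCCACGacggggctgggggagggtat
HSP90B1 (chr12:103930211-103930239, plus strand): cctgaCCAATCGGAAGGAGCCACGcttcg
HSP90B1 (chr12:103930316-103930344, plus strand): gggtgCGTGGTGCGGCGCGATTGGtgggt

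**Figure D1:**
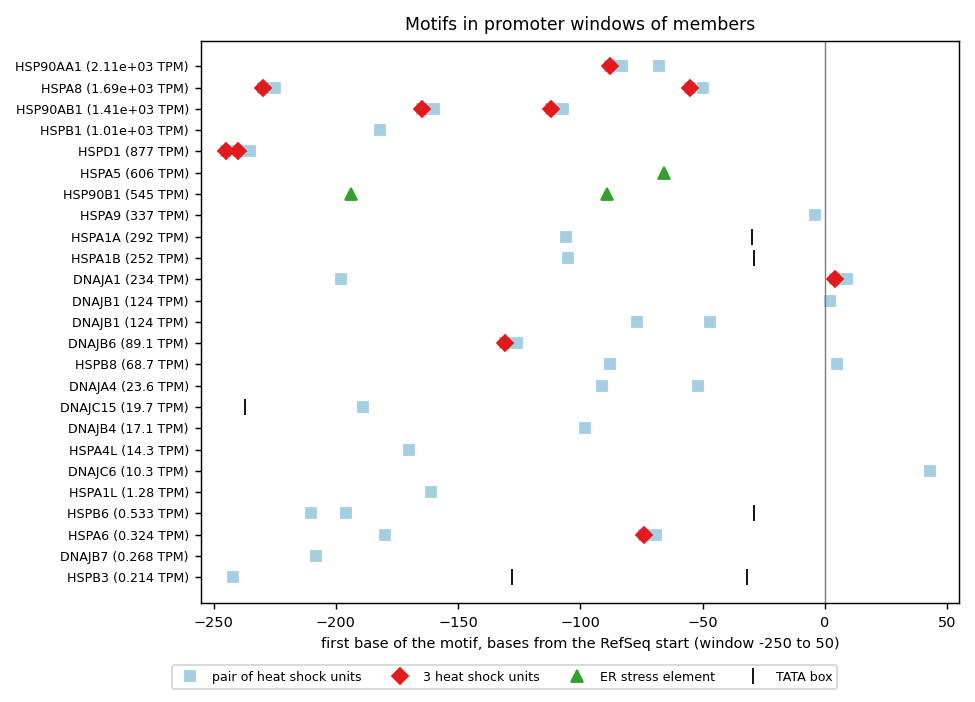
Positions of the motifs in promoter windows of members that hold a heat shock or ER stress motif, in bases from the RefSeq start (horizontal axis), with the mean TPM of each gene beside its symbol. Red diamonds are runs of 3 heat shock units, pale squares are pairs of units, green triangles are ER stress elements and black bars are TATA boxes; runs of 3 units are found both in HSP90AA1, at 2112 TPM, and in HSPA6, at 0.324 TPM.

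Most of the folding machinery was expressed. At least 1 TPM in every library was reached by 59 of the 71 members (83.1%), against 59.5% of the 18743 protein-coding rows and 33.8% of all rows. At least 10 TPM in every library was reached by 48 members (67.6%), against 40.4% of protein-coding rows. The median of the members' mean TPM was 24.5, against 4.99 over protein-coding rows. In all 3 libraries 10 members stayed below 1 TPM, and HSPA2 and DNAJB13 lay on both sides of it. By family, at least 1 TPM was reached in every library by 3 of 3 HSP90, 12 of 15 HSP70, 4 of 7 HSPB, 2 of 2 HSP60/HSP10, 4 of 4 DNAJA, 9 of 12 DNAJB and 25 of 28 DNAJC genes.

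Together the members took 1.18% ± 0.0203 (SD, n = 3) of all TPM, with sums of 12078.5, 11717 and 11738 TPM in replicates 1, 2 and 3. The 10 highest members made up 78.7% ± 0.232 of that sum. HSP90 held the largest share with only 3 genes, 34.3% ± 0.340 of the members' TPM, and HSP70 followed at 29.3% ± 0.765. HSP60/HSP10 held 11.1% ± 0.283 and HSPB 9.62% ± 0.576, most of it HSPB1. The 44 J-domain genes together held 15.6% ± 0.0317, as 3.82% ± 0.0348 in DNAJA, 3.52% ± 0.117 in DNAJB and 8.30% ± 0.0852 in DNAJC. On coverage, the mean read depth of each gene, HSP70 (31.8%) was above HSP90 (31.3%), and DNAJB held 1.92% in place of 3.52%.

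**Figure D2:**
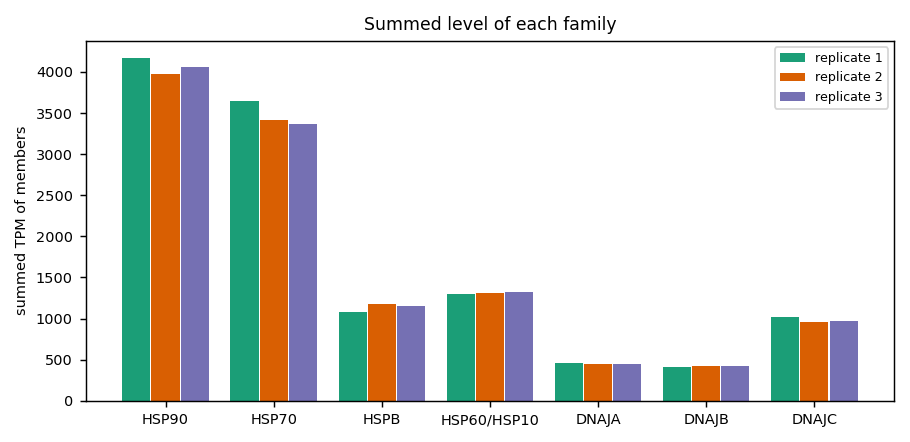
Summed TPM of the members of each of the 7 families (vertical axis, from 0), with a bar for each of the 3 replicates. HSP90 sits between 3979 and 4171 TPM and HSP70 between 3367 and 3645 TPM, while DNAJA and DNAJB have means of 452 and 416 TPM.

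HSP90AA1, the stress-inducible cytosolic HSP90, was the highest member at 2209, 2046 and 2079 TPM in replicates 1, 2 and 3 (2112 ± 86.0, SD, n = 3). HSP90AB1, the constitutive form, had 1408, 1392 and 1435 TPM (1412 ± 21.8). HSP90B1, the ER form also known as GRP94, had 553, 540 and 542 TPM (545 ± 7.10). The 3 genes did not overlap in any library. The log2 ratio of HSP90AB1 to HSP90AA1, on TPM + 1, was -0.65, -0.56 and -0.53 in turn, so that the constitutive form stood at 0.669 ± 0.0280 of the inducible one. On coverage in place of TPM the mean log2 ratio was -1.11. The proteins are 86.7% identical over 724 aligned residues, and 0 of the 150-base windows of either canonical transcript occur in a transcript of another gene. The row of HSP90AA1 overlaps that of WDR20, on the opposite strand, which had 25.8 ± 2.15 TPM.

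All 9 ratios between members had the same direction in 3 of 3 libraries, and each gave a two-sided exact sign-flip permutation p of 0.25 (0.25 after Benjamini-Hochberg adjustment over the 9), and with 3 libraries no smaller p can be reached. The ratios are therefore reported as sizes with their spread.

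**Figure D3:**
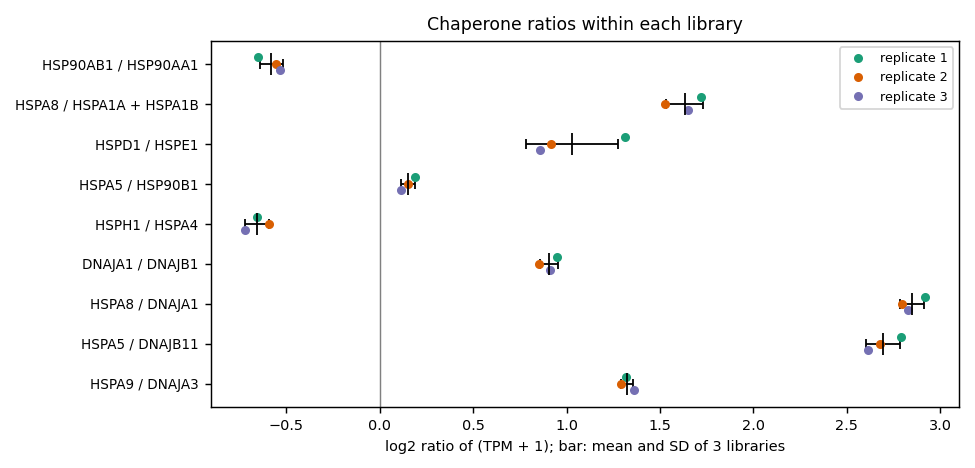
Log2 ratios of (TPM + 1) between members within a library (horizontal axis) for the 9 chaperone pairs, with a point for each replicate and a bar for the mean and SD of 3 libraries. The ratio of HSPD1 to HSPE1 has the widest spread, from 0.86 to 1.31, and the other 8 have an SD of at most 0.10.

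Among the HSP70 genes, HSPA8, the constitutive cytosolic HSC70, was far above the rest at 1795, 1625 and 1651 TPM (1690.4 ± 91.9). HSPA5, the ER chaperone BiP, followed at 631, 599 and 588 TPM (606 ± 22.2). HSPA9, the mitochondrial mortalin, had 350, 329 and 332 TPM (337 ± 11.6). The order of these genes was the same in each library and their ranges did not overlap.

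The stress-inducible pair was well expressed without any labelled stress. HSPA1A had 291, 303 and 281 TPM (292 ± 10.8) and HSPA1B had 252, 261 and 244 TPM (252 ± 8.15). Their ratio within a library was nearly fixed, at 1.16 ± 0.00537. The proteins are identical over 641 residues, and 69.6% of the 150-base windows of the HSPA1A transcript also occur in HSPA1B. Reads of these windows cannot be assigned to either gene from their sequence, so the division between the genes is uncertain, and the sum of 544 ± 18.9 TPM is the firmer value. HSPA8 exceeded that sum by 3.11-fold ± 0.212 (mean log2 ratio 1.63 ± 0.10).

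HSPA6, another strictly inducible HSP70 in most cells, was at 0.300, 0.306 and 0.366 TPM, below 1 TPM in every library. Its window holds a run of 3 heat shock units, as do the windows of HSP90AA1 and HSPA8, the members with the highest levels. Of its windows of 150 bases, 15.3% also occur in HSPA7, a pseudogene at 0.0257, 0 and 0 TPM. HSPA1L, a relative best known from testis that lies 230 bp from HSPA1A on the opposite strand, had 1.17, 1.29 and 1.37 TPM.

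The HSP110 proteins, exchange factors of HSP70, were led by HSPA4 at 130, 120 and 116 TPM (122 ± 7.05). HSPH1 had 82.1, 79.5 and 70.3 TPM (77.3 ± 6.23), and it stood at 0.632 ± 0.0283 of HSPA4 (mean log2 ratio -0.66 ± 0.06). HSPA4L was lower at 16.2, 13.3 and 13.3 TPM. HSPA14, which works with DNAJC2 at the ribosome, had 50.3, 44.7 and 44.9 TPM, and 10.5% of its windows also occur in MSANTD7. HSPA13, a microsomal HSP70, had 17.4, 15.0 and 15.8 TPM, which overlapped the range of HSPA4L. Of the divergent HSPA12 genes, HSPA12A had 8.79, 7.84 and 7.81 TPM and HSPA12B 0.481, 0.296 and 0.242 TPM, the latter overlapping HSPA6.

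HSPA2, an HSP70 needed in spermatogenesis, was the member that varied most among those with a mean of at least 10 TPM. Its level was 19.0 TPM in each of replicates 1 and 2 and 0 in the other library, with coverage of 119, 117 and 0. It was 1 of 51 such members with a range of log2(TPM + 1) above 1, against 0.103% of 7786 protein-coding rows. No other row overlaps HSPA2 on chromosome 14 (64540468 to 64543237, plus strand). Genes nearby were steady, with ZBTB1 at 19.3, 17.4 and 17.0 TPM, PPP1R36 at 1.70, 1.79 and 1.66 TPM and MTHFD1 at 181, 172 and 172 TPM.

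The pattern of HSPA2 was found in other genes too. With at least 10 TPM in 2 libraries and 0 in the other, 7 protein-coding rows stood out (B3GALT6, DOLK, HSPA2, NAP1L5, RNF113A, TIGD5 and ZNF428), with the 0 in replicate 1 for 2 of them, in replicate 2 for 2 and in replicate 3 for 3. The canonical transcript has a single exon in 6 of the 7, against 5.57% of 19970 canonical protein-coding transcripts and 8 of the 71 members. These genes were chosen by the pattern after their values were seen. The cause of the 0 was not tested, and it is a listed 0 without a count behind it, so no fold is given.

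**Figure D4:**
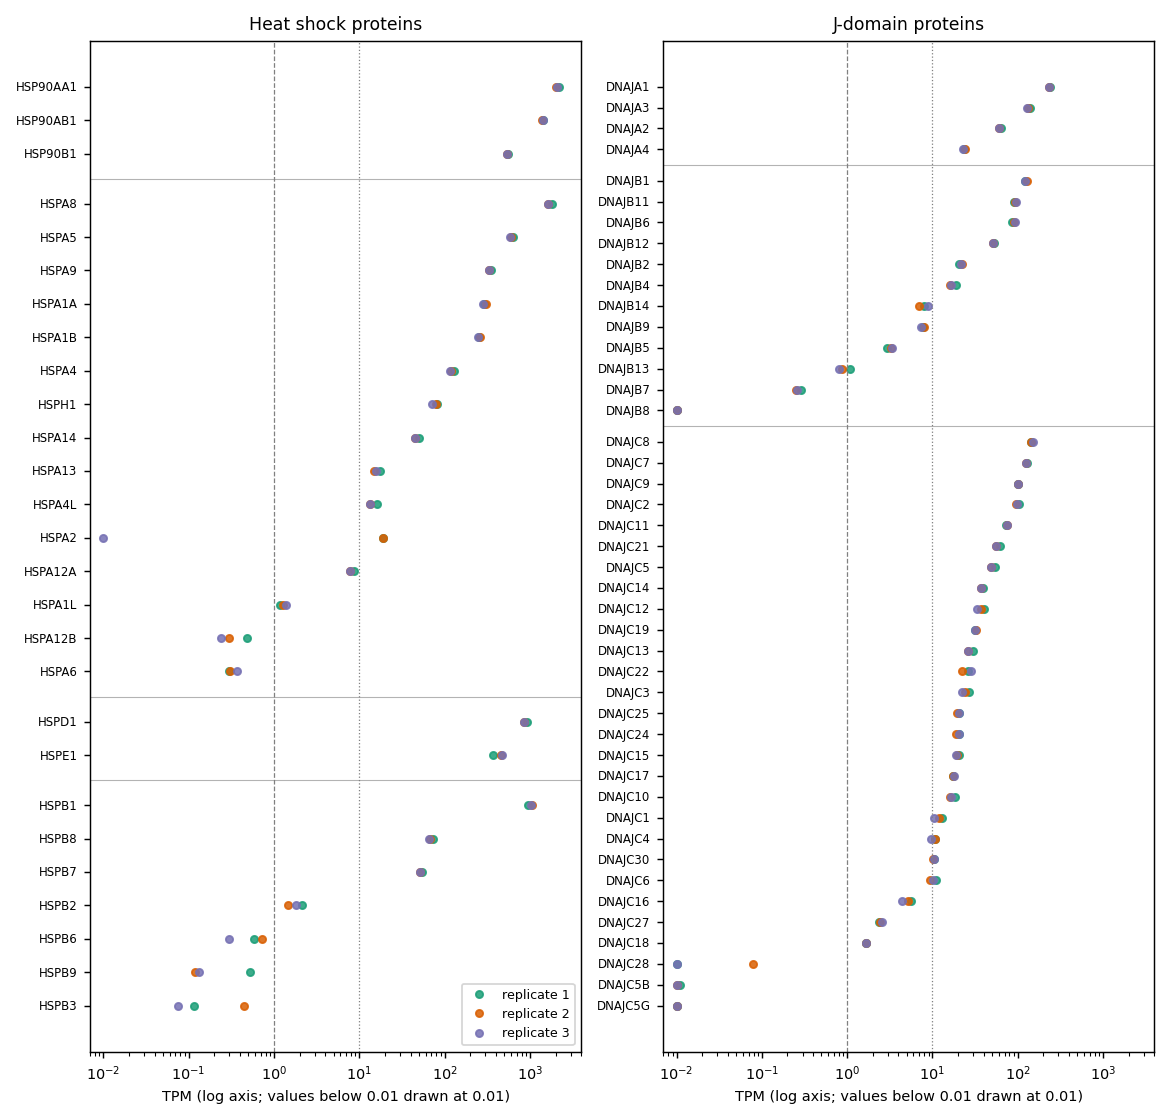
TPM of the 71 members (horizontal log axis, with values below 0.01 drawn at 0.01), with a point for each replicate and lines at 1 and 10 TPM. Heat shock proteins are on the left and J-domain genes on the right; the points of a gene mostly lie on each other, whereas HSPA2 is at 19.0, 19.0 and 0 TPM.

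The mitochondrial folding chamber was strongly expressed. HSPD1, which encodes HSP60, had 924, 857 and 850 TPM (877 ± 40.7). HSPE1, which encodes its lid HSP10, had 371, 454 and 469 TPM (431 ± 52.4), with replicate 1 the lowest for HSPE1 and the highest for HSPD1. The ratio of HSPD1 to HSPE1 was 2.49, 1.89 and 1.81 by library (log2 1.03 ± 0.25), a wider spread than in any other of the 9 ratios. The genes lie head to head on chromosome 2, HSPD1 on the minus strand (197486584 to 197500274) and HSPE1 on the plus strand (197500379 to 197503449), with 104 bp between their rows. A readthrough row, HSPE1-MOB4, covers HSPE1 and the start of HSPD1 and had 27.2 ± 1.70 TPM, and 10.8% of the windows of HSPE1 occur in it. The part of this overlap in the spread of HSPE1 was not tested.

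Small heat shock proteins were dominated by HSPB1, or HSP27, at 952, 1054 and 1037 TPM (1014.5 ± 54.6). Replicate 1 was its lowest library. HSPB8, which works with BAG3 in the removal of misfolded proteins, had 72.3, 67.2 and 66.5 TPM, and HSPB7, known from heart muscle, 54.5, 51.7 and 51.3 TPM. The other 4 genes were near or below 1 TPM. HSPB2, a muscle form, had 2.14, 1.45 and 1.79 TPM, and its row overlaps CRYAB, a small heat shock protein whose symbol the rule does not take, by 480 bp on the opposite strand at 50.2 ± 0.924 TPM. Of the windows of HSPB2, 82.4% also occur in the readthrough transcript HSPB2-C11orf52, whose row was at 0 TPM in all 3 libraries, so how reads of these windows were divided is uncertain. HSPB6 had 0.586, 0.715 and 0.298 TPM, HSPB9 0.529, 0.119 and 0.132 TPM and HSPB3 0.117, 0.450 and 0.0750 TPM. The range of HSPB9 overlapped those of both HSPB6 and HSPB3, and HSPB6 did not overlap HSPB2.

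All 4 DNAJA genes, the J-domain proteins closest in form to bacterial DnaJ, passed 10 TPM in every library, and none overlapped its neighbour. DNAJA1, a cytosolic partner of HSPA8, had 236, 233 and 231 TPM (234 ± 2.40). DNAJA3, the mitochondrial form, had 140, 133 and 129 TPM (134 ± 5.63). DNAJA2 had 63.2, 59.7 and 60.4 TPM and DNAJA4 had 23.5, 24.4 and 23.0 TPM. HSPA8 stood at 7.24-fold ± 0.326 of DNAJA1, and HSPA9 at 2.51-fold ± 0.0583 of DNAJA3. Each HSP70 thus had more RNA per length than the J-domain gene set beside it.

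DNAJB1, the main stress-inducible HSP40, led its family at 122, 129 and 123 TPM (124 ± 3.67). DNAJA1 stood at 1.88-fold ± 0.0633 of it (mean log2 ratio 0.90 ± 0.05), but on coverage in place of TPM the log2 ratio was 3.43. The row of DNAJB1 overlaps TECR, on the opposite strand, by 2846 bp, and TECR had 132 ± 1.75 TPM. DNAJB11, the ER partner of BiP known as ERdj3, had 90.3, 92.8 and 95.3 TPM, and 20.3% of its windows also occur in another gene model. DNAJB6, a suppressor of polyglutamine aggregation, had 84.9, 89.3 and 93.0 TPM, a range that overlapped DNAJB11.

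Farther down, DNAJB12, of the ER membrane, had 52.1, 51.0 and 51.4 TPM and DNAJB2, a neuronal form, 20.4, 22.5 and 21.4 TPM. DNAJB9 (ERdj4), a target of the unfolded protein response, had 7.69, 7.99 and 7.41 TPM, which overlapped DNAJB14 (7.89, 7.03 and 8.84 TPM). DNAJB13, a protein of the sperm flagellum, had 1.08, 0.883 and 0.797 TPM. It was the only J-domain member whose translated canonical transcript lacks HPD, the residues that act on HSP70, and 43 of 44 hold it. Of the forms best known from testis, DNAJB7 had 0.289, 0.254 and 0.261 TPM and DNAJB8 was at 0 in every library. All 2578 bp of the DNAJB7 row overlap XPNPEP3, on the opposite strand, which had 4.74, 4.25 and 4.23 TPM. The remaining members of the family were DNAJB4, at a mean of 17.1 TPM, and DNAJB5, at 3.20 TPM.

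The DNAJC genes share little beyond the J domain and range from 116 residues in DNAJC19 to 2243 in DNAJC13. DNAJC8, found with the spliceosome, led at 144, 142 and 149 TPM. DNAJC7, which binds both HSP70 and HSP90, had 130, 124 and 124 TPM. DNAJC9, a histone chaperone, had 101, 100 and 101 TPM, with a CV of 0.173%, and its range lay within that of DNAJC2, the ribosome-bound partner of HSPA14, at 104, 95.1 and 98.2 TPM. The row of DNAJC2 overlaps that of PMPCB, on the opposite strand, by 17614 bp, and PMPCB had 41.9, 42.8 and 42.9 TPM. DNAJC11, of the mitochondrial outer membrane, had 73.3, 75.4 and 74.4 TPM. Lower in the family the order was less sharp, and 12 of its 27 neighbouring pairs overlapped, against 4 of 14 in HSP70 and 2 of 11 in DNAJB.

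In the mitochondrial import motor, DNAJC19 had 31.7, 32.3 and 31.7 TPM and DNAJC15 20.6, 19.4 and 19.1 TPM. DNAJC30, of the inner membrane, had 10.4, 10.1 and 10.3 TPM. Of the ER forms, DNAJC3 (P58IPK) had 27.2, 24.2 and 22.1 TPM, DNAJC10 (the reductase ERdj5) 18.3, 16.1 and 16.7 TPM and DNAJC1 from 10.6 to 13.0 TPM, each highest in replicate 1. At the bottom, DNAJC28 was listed at 0, 0.0780 and 0 TPM, DNAJC5B at 0.0111, 0 and 0 TPM and DNAJC5G at 0 in all 3 libraries. DNAJC5, the cysteine string protein to which DNAJC5B and DNAJC5G are related, had 53.8, 49.0 and 48.0 TPM. The other 13 DNAJC genes had mean levels between those of DNAJC18, at 1.67 TPM, and DNAJC21, at 57.6 TPM.

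By compartment, the cytosolic HSP90 pair summed to 3523 ± 89.8 TPM and HSPA8 with HSPA1A and HSPA1B to 2235 ± 90.4 TPM. A chosen set of 6 mitochondrial genes (HSPA9, HSPD1, HSPE1, DNAJA3, DNAJC19 and DNAJC15) summed to 1831 ± 6.45 TPM. A chosen set of 7 ER genes (HSPA5, HSP90B1, DNAJB11, DNAJC3, DNAJB9, DNAJC10 and DNAJC1) summed to 1305 ± 31.1 TPM, of which HSPA5 and HSP90B1 were the largest parts. Both sets are partial. DNAJC11 and DNAJC30 of the mitochondria, and DNAJB12 and HSPA13 of the ER, are not in the sums. HSPA5 exceeded HSP90B1 by 1.11-fold ± 0.0279 and DNAJB11 by 6.54-fold ± 0.413. Proteins ending in the ER retention letters KDEL were those of HSP90B1, HSPA5 and DNAJC10. Those ending in EEVD, which binds TPR cochaperones, were HSP90AA1, HSP90AB1, HSPA1A, HSPA1B, HSPA1L, HSPA2, HSPA6 and HSPA8.

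The replicates were close for most members. Among the 51 members with a mean of at least 10 TPM the median CV was 4.54%, against 4.77% over the 7786 protein-coding rows at that level. Replicate 1 was highest for 33 of the 51 (64.7%), and for 64.0% of those rows, a share close to that of the members. The largest CV of a member over 100 TPM was that of HSPE1, at 12.2%.

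For some members, as for many other protein-coding rows, coverage was low in proportion to FPKM. Coverage divided by FPKM reaches the same highest value in many genes of a library, and a lower value means that a gene had less coverage than its FPKM would give in those genes. Of the 60 members with a mean of at least 1 TPM, 12 (20.0%) were below 0.5 of that value in replicate 1, against 29.9% of 11308 protein-coding rows. The lowest were DNAJC12 at 0.0690, DNAJB6 at 0.0700, DNAJB4 at 0.119, DNAJC6 at 0.140 and DNAJB1 at 0.168, named after their values were seen. HSP90AB1 was at 0.592, HSP90AA1 at 0.854 and HSPA8 at 0.889. What lowers the ratio was not tested. By arithmetic, a log2 ratio that involves such a gene, as DNAJA1 to DNAJB1, differs on the coverage scale.

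**Figure D5:**
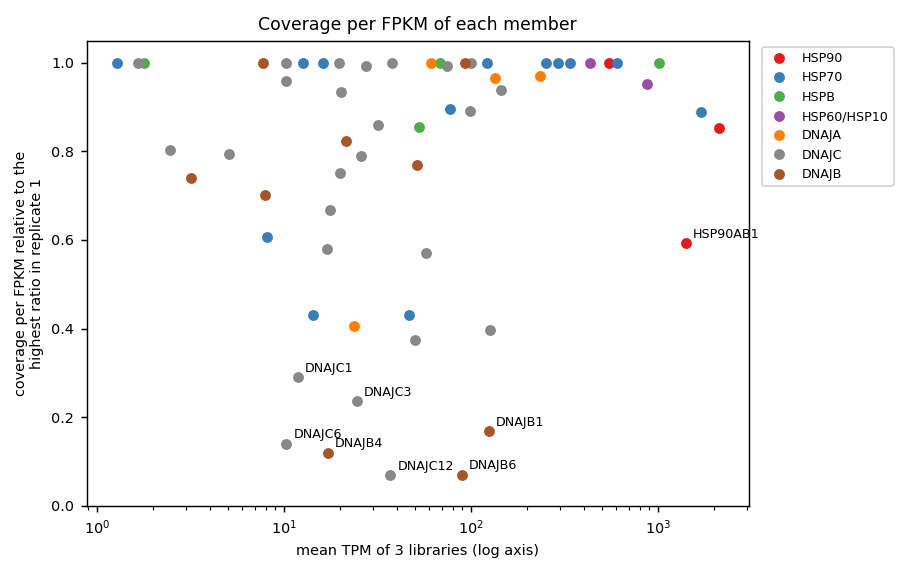
Coverage per FPKM in replicate 1, relative to the highest ratio in that library (vertical axis), against mean TPM of 3 libraries (log axis), for the 60 members with a mean of at least 1 TPM, coloured by family. Points at 1, such as HSPB1 and HSPA5, have coverage in full proportion to FPKM, and DNAJC12 and DNAJB6 lie lowest, at 0.0690 and 0.0700.

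Partners of the machinery, in a list chosen with earlier results of these data known, were also expressed. Its shares describe the list and are no test of such genes in general. The list holds 28 cochaperones, exchange factors and heat shock factors. Of these, 28 had at least 1 TPM in every library and 27 at least 10 TPM, against 59.5% and 40.4% of protein-coding rows. The median of their mean TPM was 68.2, against 4.99. PTGES3, the HSP90 cochaperone p23, had 440 ± 30.3 TPM, STIP1, which bridges HSP70 and HSP90, 398 ± 8.13 TPM and AHSA1, an activator of the HSP90 ATPase, 227 ± 4.79 TPM. CDC37, which brings kinases to HSP90, had 207 ± 1.40 TPM and STUB1, the ubiquitin ligase CHIP, 182 ± 12.3 TPM. This order is by TPM. On coverage STIP1 lay below CDC37 in every library, and PTGES3 lay below CDC37 in replicates 2 and 3. STIP1 and AHSA1 also lay below ST13 in every library, so the 5 highest on coverage are a different set. HSF1, the main heat shock transcription factor, had 42.3, 41.3 and 39.7 TPM, against 8.51, 7.48 and 8.39 TPM for HSF2. BAG3, the partner of HSPB8, had 45.6, 43.7 and 43.5 TPM, and HYOU1, the ER exchange factor of BiP, 101, 95.8 and 90.2 TPM.

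In a list of 18 genes of ER folding and ER stress, 18 had at least 1 TPM and 16 at least 10 TPM in every library, against the same 59.5% and 40.4% of protein-coding rows, and the median of their mean TPM was 109, against 4.99. This list was likewise chosen with earlier results of these data known, so its shares only describe it. The highest were CALR, a lectin chaperone, at 788 ± 9.79 TPM, P4HB, a disulfide isomerase, at 552 ± 15.8 TPM, CANX, the membrane-bound lectin chaperone, at 489 ± 19.9 TPM, PDIA3, another isomerase, at 258 ± 11.3 TPM and ATF4, a transcription factor of the stress response, at 237 ± 8.73 TPM. HSPA5, at 606 ± 22.2 TPM, lay between CALR and P4HB. On coverage HSPA5 kept that place, but CANX lay below PDIA3 in every library. ATF4 lay below PDIA6, PDIA4, SDF2L1, MANF and XBP1 in every library on coverage.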

How the data were processed

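RNA-seq tables of 3 libraries, 1 condition, were used. Per the submitters' processing notes and the study's methods, the authors trimmed 150 bp paired-end reads with Trim Galore 0.6.2 after FastQC 0.11.8 and mapped them to GRCh38 with STAR 2.6.1a. StringTie is named without a version. The annotation and the strand setting are not given in the sources used here, so reads of overlapping genes on opposite strands may have been assigned to either. The deposited TPM values are scaled to 1 total per library, the authors' FPKM values are corrected for both length and library size, and the deposited coverage is the unscaled mean read depth of each gene. No counts are given, so depth was compared only through the highest coverage per FPKM, and the SD of 3 libraries gives the precision.

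Joining by gene and coordinates gave 43389 rows, of which 39320 outside alternate contigs were kept. The symbol rule left out 5 pseudogene rows, 6 rows with a hyphen and 14 rows on alternate contigs, the last all at 0. A gene type was found in RefSeq for 35017 rows. Log2 ratios of TPM + 1 were tested by an exact sign-flip permutation (two-sided) with Benjamini-Hochberg adjustment over 9 ratios. The range calculation was tested on simulated data. The members and lists were chosen with earlier results of these data known. The genes named were all heat shock protein genes. Of each J-domain family, they were those in the ratios, the 5 highest, those below 1 TPM, those varying by over 1 on the log2 scale, those of mitochondria or ER and those without HPD. DNAJB4, DNAJB5, DNAJC5, DNAJC6, DNAJC12, DNAJC13, DNAJC18 and DNAJC21 fall outside this rule and were named after their values were seen. Of the 2 further lists, they were the 5 highest by TPM, HSF1, HSF2, BAG3 and HYOU1. ST13, PDIA4, PDIA6, SDF2L1, MANF and XBP1 were named for their coverage after their values were seen.

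Transcripts and translated coding regions came from GENCODE v44 canonical transcripts, whose 150-base windows were searched exactly in transcripts of other genes. Only the sense strand was searched, so windows shared with opposite-strand transcripts were not counted. Promoter windows came from RefSeq (GRCh38.p14), and 7 members had no match (DNAJC1, DNAJC22, DNAJC24, DNAJC5B, HSPA12B, HSPA14 and HSPB2). Alternatives were leaving out each replicate, a pseudocount of 0.1, other TPM minima, coverage used instead of TPM, scaling by median of ratios, scaling without mitochondrially encoded genes and adding pseudogenes. Python 3.11.15, numpy 2.4.6, pandas 2.3.3, scipy 1.17.1, Biopython 1.88 and matplotlib 3.10.9 were used.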

Additional observations from a re-analysis of the deposited data

How the results depend on the processing

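The 9 log2 ratios kept their direction with a pseudocount of 0.1, with coverage in place of TPM and with each replicate left out. The coverage scale moved the ratio of DNAJA1 to DNAJB1 from 0.90 to 3.43 and that of HSP90AB1 to HSP90AA1 from -0.58 to -1.11. It moved the shares of the families to 31.3% (HSP90), 31.8% (HSP70), 11.1% (HSPB), 12.5% (HSP60/HSP10), 4.20% (DNAJA), 1.92% (DNAJB) and 7.17% (DNAJC). Scaling without mitochondrially encoded genes raised the summed TPM of the members from 11844 to 14821, and the means of 62 of the 71 members moved by more than 1 SD, by construction, since every factor was 1.25. With a minimum of 0.1 TPM in place of 1 TPM 65 members were counted, and with 30 TPM in place of 10 TPM 33 were counted. The count of members that vary between replicates was 0 with any 1 replicate left out: without replicate 3 HSPA2 no longer varied, and without replicate 1 or replicate 2 its mean fell below 10 TPM. No paired analysis was possible because the series holds 1 condition. Without counts, the counting error of genes below 1 TPM cannot be given.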
